A study of Homo sapiens with 8 samples.

Results

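ID1, ID2 and ID3 are the 3 listed members of the ID family, the inhibitors of helix-loop-helix transcription factors, and they were followed here in K562 cells given a plant extract. Their rows were found by gene symbol in a deposited table of 1950 genes, of which 1317 carry a symbol. RNA was sequenced from 8 libraries of K562, an established human chronic myeloid leukemia line. The extract group had 4 libraries from cells grown with an extract of Caulis Polygoni Multiflori, the stem of a medicinal plant, at 80 µg/mL for 3 days. The control group had 4 libraries from cells grown without it, numbered 2 to 5 in the labels. All cells were of this line and grew in the same medium with serum, and the labels name no genetic change in any of them. The labels give no culture time for the controls, so a difference in that time and the extract cannot be told apart. Separate cultures are not named for the libraries of either group, so errors and p-values cover the spread among libraries alone, and this may be technical.

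ID proteins have a helix-loop-helix dimerization domain but lack the basic region that contacts DNA. They pair with E proteins such as those encoded by TCF3, TCF4 and TCF12 and keep these, and the tissue-restricted factors that need them as partners, off the E-box sequence. In many cells the ID genes are immediate targets of bone morphogenetic protein (BMP) signaling through SMAD transcription factors, and in blood they are known for keeping progenitors from differentiating too early. ID2 can also bind the retinoblastoma family of cell cycle regulators, and ID3 is best known for its part in lymphocyte development.

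The coding sequences of the 3 genes are related, and the stretch below shows how close they come, which bears on whether reads could be assigned to the wrong member. In GENCODE transcripts on GRCh38, the longest run shared by ID1 and ID2 was 21 bases, inside the coding sequence of both. Capitals mark the 19 bases that are identical in all 3 genes. The ID1 stretch lies at chr20:31605673-31605693 on the plus strand, that of ID2 at chr2:8682361-8682381 on the plus strand and that of ID3 at chr1:23559196-23559216 on the minus strand.
ID1 coding bases 286 to 306: CAGCaCGTCATCGACTACATc
ID2 coding bases 196 to 216: CAGCaCGTCATCGACTACATc
ID3 coding bases 211 to 231: CAGCgCGTCATCGACTACATt
The longest run shared by ID1 and ID3 was 15 bases, and that of ID2 and ID3 was 19 bases, outside the coding sequence. ID4, the family member with no row in the table, shared at most 14 bases in a row with any of the others and was not analysed here.

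All 3 members were lower with the extract, and in none of them did the groups overlap. These are the values that chose them: in the authors' deposited table no p-value exceeded 0.0499 and no log2 fold change was under 0.585 in size, so the members were in effect selected on this same contrast. Their values are therefore given as a description, with no test. The sources used here name no unit for the expression values. It is not known whether they were divided by gene length, so no order of level between the 3 genes is given.

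ID1 (ENSG00000125968, chromosome 20, 31605283 to 31606515, GRCh38, plus strand) is the member best known as a direct BMP target. Its expression values with the extract were 36.81, 36.02, 31.07 and 32.27 in libraries 1 to 4, against 66.02, 65.60, 64.23 and 49.46 in control libraries 2 to 5. The extract libraries lay close together, and control 5 stood below the other controls but above every extract library. The mean was 34.04 ± 2.80 with the extract and 61.3 ± 7.95 in controls (SD, n = 4 each), which is 44.5% lower. Without control 5 the control mean was 65.3 ± 0.936 (n = 3) and the ratio of extract to control was 0.522, in place of 0.555.

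ID2 (ENSG00000115738, chromosome 2, 8678845 to 8684453, plus strand) showed the largest relative difference of the 3. It had values of 2.79, 3.03, 1.96 and 3.22 in extract libraries 1 to 4, against 6.29, 6.87, 7.27 and 6.46 in control libraries 2 to 5. Extract 3 was the lowest library, and even the highest extract value was under every control. The means were 2.75 ± 0.555 with the extract and 6.72 ± 0.439 in controls (SD, n = 4 each), which is 59.1% lower. Any control library exceeded any extract library by a factor between 1.95 and 3.71. The ID2 gene model of GENCODE overlaps that of the antisense RNA ID2-AS1 by 3019 bases, introns included. This overlap ends at base 8681863, before the RefSeq start of ID2 at base 8682056. The sources used here do not say whether the library kit kept strand, so reads of ID2 and ID2-AS1 in that overlap cannot be told apart, and ID2-AS1 had no row in the table.

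ID3 (ENSG00000117318, chromosome 1, 23557918 to 23559794, minus strand) had values of 8.06, 9.45, 11.48 and 8.77 in extract libraries 1 to 4. The controls numbered 2 to 5 had 17.6, 13.64, 15.72 and 15.76. Here extract 3 was the highest of its group and control 3 the lowest of its group, and the gap between them was 2.16. The means were 9.44 ± 1.47 with the extract and 15.7 ± 1.62 in controls (SD, n = 4 each), which is 39.8% lower. The factor between a control and an extract library ranged from 1.19 to 2.18, so the groups of ID3 came closest to each other.

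**Figure D1:**
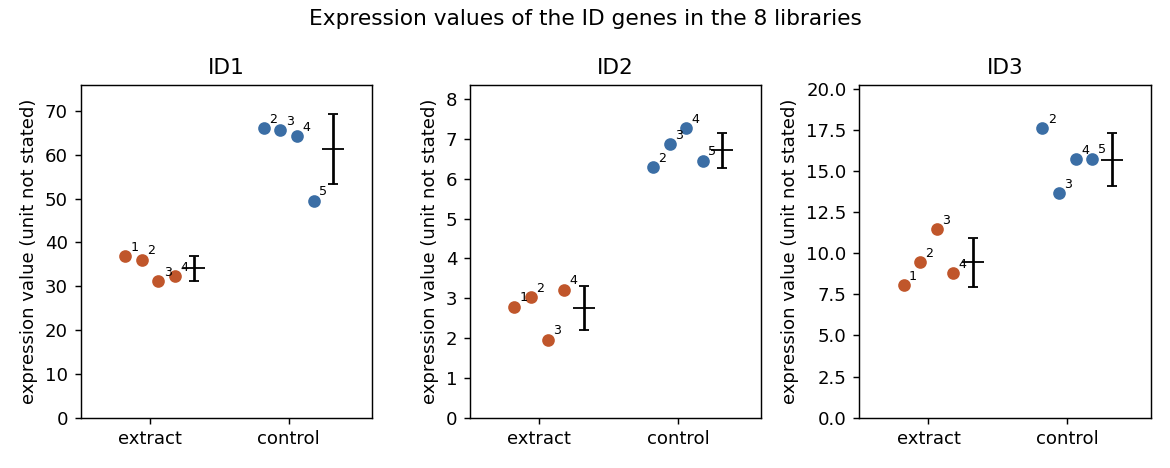
Expression values (y axis, unit not stated) of ID1, ID2 and ID3 in extract and control libraries. Points are libraries with their numbers, and the bars beside them are the mean and SD of 4. Every extract point lies under every control point, with the smallest gap, 2.16, in ID3 and a low control 5 (49.46) in ID1.

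The 3 genes did not rank the libraries in the same way. Relative to the control mean on the scale log2(value + 1), extract 3 was lowest for ID1 (−0.95) and ID2 (−1.38) and highest of its group for ID3 (−0.41). Extract 1 was the lowest library for ID3 (−0.88) and the highest of its group for ID1 (−0.71). Among controls the low value of ID1 in control 5 (−0.30) was not shared by ID2 (−0.05) or ID3 (0.01). With 4 libraries a group, no correlation between members is given. The coefficient of variation of the expression values was 8.23%, 20.2% and 15.6% with the extract and 13.0%, 6.53% and 10.3% in controls, for ID1, ID2 and ID3 in that order.

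**Figure D2:**
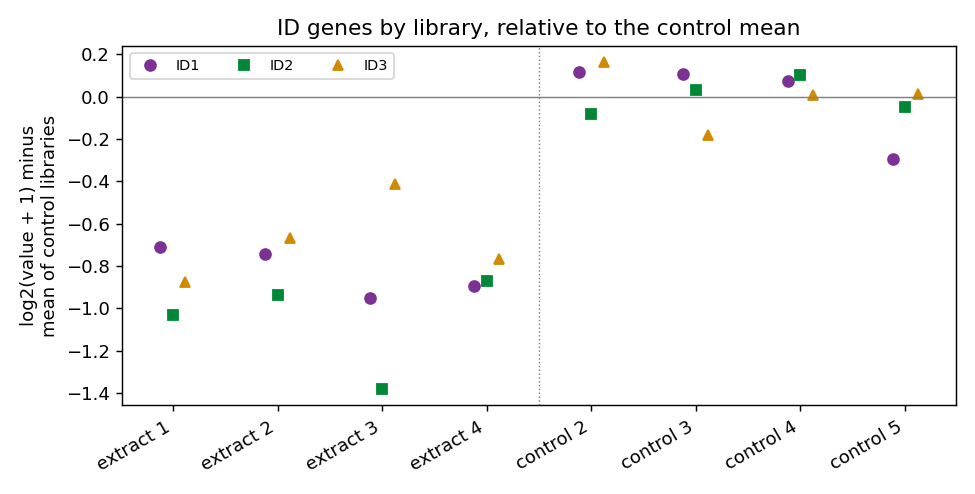
log2(value + 1) of each ID gene in each library minus the mean of its 4 control libraries (y axis), with extract libraries left of the dotted line and controls right of it. Extract 3 holds the lowest ID2 point (−1.38) and the highest ID3 point among extract libraries (−0.41).

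A limma fit was made over the 750 genes that reached a value of 1 in 4 or more libraries, and all 3 members reached it in all 8. The log2 change on the scale log2(value + 1) was −0.82 for ID1 (SE 0.10), −1.05 for ID2 (SE 0.12) and −0.68 for ID3 (SE 0.11). The table is made of changed genes, and 82.8% of the tested genes had a limma adjusted p under 0.05, with 56.0% called lower. Genes without overlap between groups and lower with the extract made up 45.9%, so 3 of 3 members without overlap is read as no result about the members. The median change of all tested genes was −0.50. ID1 was 0.33 below that median, ID2 0.56 below and ID3 0.18 below. A log2 change below that of ID2 was found in 44 tested genes, below that of ID1 in 111 and below that of ID3 in 195.

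Each member was also set beside tested genes of like mean value, within 2-fold of its own, taking the values as deposited with their scaling by length unknown. ID1 (−0.82) stood beside a median change of −0.73 over 51 genes, and 19 of these were below it. For ID2 (−1.05) the median was −0.54 over 312 genes, and 15 of these were below it. For ID3 (−0.68) the median was −0.64 over 159 genes, with 62 below it. The share of such genes below the member was smallest for ID2.

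**Figure D3:**
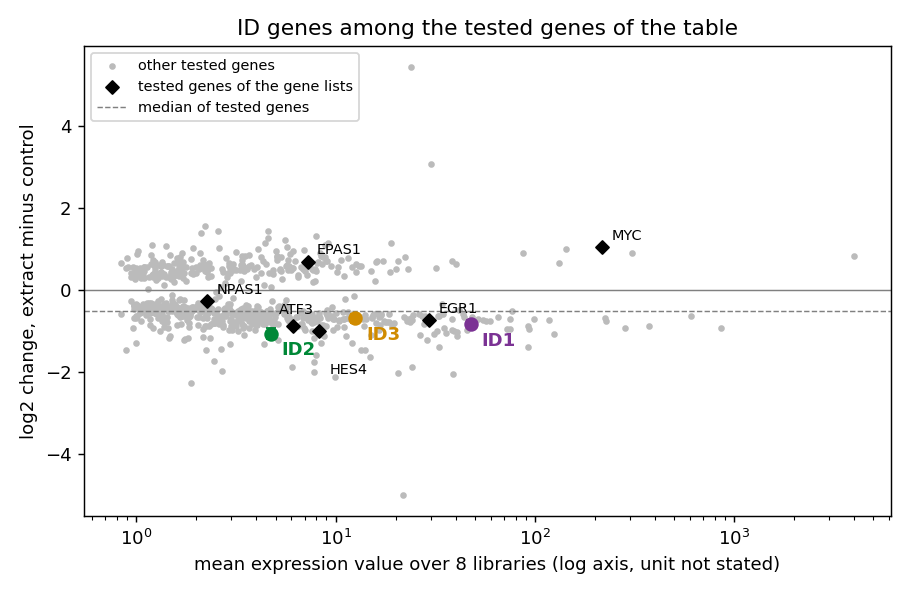
Mean expression value over 8 libraries (x axis, log axis, unit not stated) against the log2 change of extract minus control (y axis) for the 750 tested genes. ID1 (−0.82), ID2 (−1.05) and ID3 (−0.68) lie below the dashed median of −0.50, as do EGR1, ATF3 and HES4 of the gene lists (diamonds), and MYC and EPAS1 lie above 0.

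The size of the difference depended on how libraries were scaled. Centring each library on its median over the tested genes gave −0.56 for ID1, −0.79 for ID2 and −0.41 for ID3, and the median of all tested genes moved to −0.23. Quantile normalization gave −0.20 for ID1, −0.83 for ID2 and −0.32 for ID3, with a median of −0.24. Relative to that median ID1 was then 0.04 above it, against 0.33 below it as deposited, while ID2 stayed 0.59 below. All 3 genes were lower with the extract under every scaling tried, but where ID1 stands relative to the other listed genes turns with quantile normalization. Both scalings draw on the listed genes, which were selected for a change and are mostly lower. The split of limma calls was 201 higher and 420 lower as deposited, 228 higher and 241 lower after centring, and 222 higher and 251 lower after quantile normalization.

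**Figure D4:**
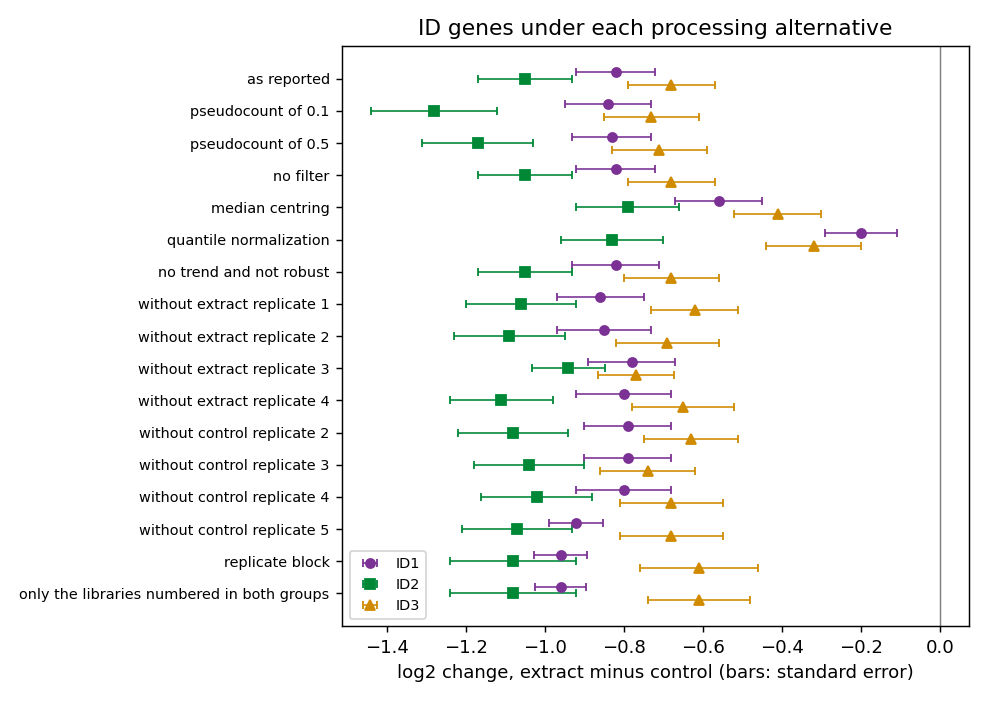
Log2 change of extract minus control for ID1, ID2 and ID3 (x axis, bars are standard errors) as reported and under each processing alternative (y axis). All points lie left of 0, and the point nearest to 0 is ID1 after quantile normalization (−0.20).

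The authors' deposited table gave fold changes (extract over control) slightly nearer to 1 than the ratios of the mean expression values. For ID1 it gave 0.578, for ID2 0.432 and for ID3 0.614. The ratios of means were 0.555, 0.409 and 0.602. The adjusted p-values in the authors' deposited table were 1.73e-44 for ID1, 4.05e-09 for ID2 and 3.82e-08 for ID3. In that table, the authors' deposited table, 27.7% of the 1950 genes were lower at an adjusted p under 0.05, and nothing is read from the members being among them.

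Around the ID genes, 14 gene lists with 269 genes cover the ligands, receptors, SMADs and inhibitors of BMP and TGF-beta signaling, their targets, the partners of ID proteins and the other helix-loop-helix families. Of these genes 19 were listed, with 13 lower and 6 higher with the extract by the ratios of the authors' deposited table, beside 1100 lower and 850 higher of all 1950 listed genes. The table holds 1950 genes, where its p-values imply a family of 60664, so most genes of any kind have no row. How many genes of a list have a row is therefore read as no result about that list. Of the 19 listed genes 6 were high enough to test. In limma 5 of the 6 passed at an adjusted p of 0.05, of which 2 rose and 3 fell, where 26.8% of all tested genes were called higher and 56.0% lower. The median change of the 6 was −0.50, the same as that of all tested genes to 2 decimals. The genes of the table were chosen for this contrast, so a pass of any of them adds no support.

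The listed ligands and receptors of the BMP and TGF-beta pathway were all too low to test. Of 31 ligand genes 2 were listed. BMP10, a ligand of the BMP family, was at 0.0525 ± 0.0222 with the extract and 0.01 ± 0.00817 in controls, and TGFB3, which encodes a TGF-beta ligand, was at 0.418 ± 0.136 with the extract and 0.720 ± 0.198 in controls (SD, n = 4 each). Of 19 receptor and co-receptor genes 3 were listed. RGMA, a BMP co-receptor, had 0.0525 ± 0.0206 with the extract and 0.160 ± 0.0258 in controls, and its groups did not overlap. For ENG, the co-receptor endoglin, the means were 0.878 ± 0.282 with the extract and 0.908 ± 0.263 in controls, a difference within the spread of either group, whereas the authors' deposited table gave a fold change of 0.521. For the receptor gene BMPR1B the means were 0.0725 ± 0.0126 with the extract and 0.135 ± 0.244 in controls, while the authors' deposited table gave a fold change of 3.32, in the opposite direction. Its control mean came mainly from 1 library, control 5, at 0.50.

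None of the 20 genes for SMAD proteins and their regulators and none of the 18 secreted or membrane BMP inhibitors were listed (0 of each). Of 29 other BMP and TGF-beta target genes considered here 1 was listed, under the filter. This was the repressor gene HEY2, which had 0.160 ± 0.0606 with the extract and 0.0550 ± 0.0603 in controls. SMAD6, SMAD7 and BAMBI, feedback inhibitors that are usual partners of the ID genes in a BMP response, had no row and were not analysed here. A common change of BMP targets is thus neither shown nor tested by these rows.

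The direct partners of ID proteins also had no row, with 0 of 3 E protein genes and 0 of 13 pocket protein and E2F genes listed. Of 47 tissue-restricted partners of E proteins 2 were listed, ASCL2 (0.538 ± 0.319 with the extract and 0.980 ± 0.377 in controls) and BHLHA15 (0.753 ± 0.118 with the extract and 1.17 ± 0.196 in controls), and TAL1 and LYL1 of the blood lineages were not among them. Of 21 CDK inhibitors and other E protein targets the 2 listed genes were the growth factor gene HBEGF (0.0875 ± 0.0709 with the extract and 0.258 ± 0.135 in controls) and the matrix gene THBS1 (1.12 ± 0.451 with the extract and 0.570 ± 0.208 in controls). None of the 7 genes for ubiquitin enzymes that act on ID proteins were listed (0).

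Among the 4 tested helix-loop-helix genes of these lists, HES4, a repressor gene, was the 1 called lower. It belongs to the hairy and enhancer of split family, whose members act in or beside Notch signaling. Its values were 5.85, 4.6, 5.44 and 4.70 in extract libraries 1 to 4, against 11.23, 14.22, 11.76 and 8.10 in control libraries 2 to 5. The groups did not overlap, and the log2 change was −0.98 (limma adjusted p = 0.00081). It lost its call when p-values were adjusted over the 60664 genes that the deposited p-values imply (adjusted p = 0.0655, range 0.000235 to 0.0655 over the 17 alternatives). HES7 and HEYL of the same list were too low to test under the filter and were called lower without it (limma adjusted p = 0.0192 and 0.0264). Their groups did not overlap, with means of 0.355 ± 0.263 and 0.773 ± 0.0597 with the extract, against 0.953 ± 0.131 and 1.21 ± 0.192 in controls.

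MYC and EPAS1 were the tested helix-loop-helix genes that rose, while HEY2, described above, was too low to test. MYC, whose protein pairs with MAX, stood at 295 ± 7.33 with the extract and 141 ± 2.49 in controls. EPAS1, which encodes the hypoxia factor HIF-2 alpha, had values of 7.6, 8.38, 10.17 and 10.76 in extract libraries 1 to 4, against 5.28, 6.09, 4.84 and 4.86 in control libraries 2 to 5. Its groups did not overlap, and the log2 change was 0.70 (limma adjusted p = 0.00128). The call of EPAS1 was lost over the family of 60664 genes (adjusted p = 0.104, range 0.00035 to 0.104 over the alternatives). NPAS1, a related factor, had means of 1.93 ± 0.591 with the extract and 2.61 ± 1.11 in controls and did not pass (limma adjusted p = 0.308).

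Of 19 serum-induced and KLF genes, some of which are known upstream factors of ID promoters, 3 were listed and all were lower. EGR1, an early growth response factor, fell to 22.0 ± 0.793 with the extract, against 37.1 ± 1.95 in controls (log2 change −0.73, limma adjusted p = 1.12e-05), and lost its call with quantile normalization (adjusted p = 0.0561, range 1.16e-05 to 0.0561). ATF3, which encodes a stress-induced repressor that can act on ID1, fell to 4.04 ± 0.878 with the extract, against 8.17 ± 0.294 in controls (log2 change −0.88, limma adjusted p = 0.000479, range 0.000291 to 0.0388). FOSB, too low to test, was at 0.323 ± 0.112 with the extract and 0.590 ± 0.166 in controls.

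The promoters of the 3 genes are shown because their RNA was lower together and EGR1 and ATF3 are in the table. Sequences are RefSeq's on GRCh38.p14, 250 bases before the RefSeq start, and all 3 members matched. The GENCODE start lay 6 bases before the RefSeq start in ID1, 3211 in ID2 and 293 in ID3. The windows of ID2 and ID3 thus lie inside their GENCODE gene spans. For ID1 the 244 bases before the GENCODE start are given (chr20:31605039-31605282, plus strand), with the inverted CCAAT box and the TATA box in capitals.
ID1 upstream: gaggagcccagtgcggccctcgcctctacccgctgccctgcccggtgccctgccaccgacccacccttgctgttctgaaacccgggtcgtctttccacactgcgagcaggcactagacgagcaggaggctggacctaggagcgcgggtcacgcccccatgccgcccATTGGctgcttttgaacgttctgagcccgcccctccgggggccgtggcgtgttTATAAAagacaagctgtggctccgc

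Each promoter held a TATA-like run on its own strand shortly before its start, shown in capitals in stretches of 30 bases. Only runs in a narrow zone there were taken, so their like distance follows from that choice. The motifs TATAA and ATAAA, which overlap in ID1, were searched on both strands, and at least 1 match was found in 18.9% and 32.7% of 35116 RefSeq promoter windows of the same length. These shares count a match at any position, so they are no background for a run in that zone. ID3 also held ATAAA 58 bases before its start, outside the zone. The capitals begin 31, 30 and 29 bases before the start in ID1, ID2 and ID3. The stretches lie at chr20:31605248-31605277 (plus), chr2:8682016-8682045 (plus) and chr1:23559511-23559540 (minus).
ID1: gtggcgtgttTATAAAagacaagctgtggc
ID2: gcgagtgcggATAAAagccgccccgccggg
ID3: aggcaggctcTATAAgtgaccgccgcggcg

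CCAAT boxes were found in the windows of ID1 and ID2. CCAAT, searched on both strands, had 1 match in ID1, 3 in ID2 and 0 in ID3, and 32% of all windows held it. The longest run shared by the windows of ID1 and ID2, 9 bases, begins with this box in its inverted form, with ATTGG in capitals below, at chr20:31605193-31605222 and chr2:8681872-8681901, both plus strand.
ID1: cccatgccgcccATTGGctgcttttgaacg
ID2: caccccgcggggATTGGctgcgaacgcgga
For the other motifs, both strands were searched as well. The EGR core GTGGGCG was found 2 times in ID2 and not in ID1 or ID3 (8.53% of all windows). The GC box core GGGCGG, which overlaps an EGR match in ID2, was found 2 times each in ID1 and ID2 and not in ID3 (42.6% of windows). The BMP-responsive SMAD element GGCGCC was in none of the 3 windows (0 matches, 16.4% of windows). Bases farther upstream were not searched, so this does not show whether the genes have such elements. The core TGACG of cyclic AMP response elements, a sequence to which ATF family proteins bind, was found 1 time, in ID3 (21.2%), as was the STAT element TTCNNNGAA (6.57%). The E-box CANNTG was found 1 time, in ID2 (61.8%). A match is a run of letters in this window and was not tested for binding.

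By the size and shape of their pattern over the 8 libraries, the members were closer to some other genes than to each other. Many genes of a table chosen for this contrast were compared, so this is read as no result about the family. Likeness was the root mean square difference of log2(value + 1), each gene centred on its control mean, among 292 tested genes. These had a symbol, were not annotated as pseudogenes in GENCODE and had a mean value of 3.33, the median of tested genes, or more. Most like ID1 were the small GTPase gene RRAS (0.11), the apolipoprotein gene APOE (0.11) and the transcription factor gene MAFF (0.12). Most like ID2 were the death gene BBC3 (0.15), MYEOV (0.15) and CA8 (0.15). Most like ID3 were STARD8 (0.11), RTN2 (0.13) and the antisense RNA gene ZNF436-AS1 (0.13). Between members the difference was 0.23 for ID1 and ID2, 0.26 for ID1 and ID3 and 0.38 for ID2 and ID3. Measured from ID1, ID2 was rank 102 and ID3 rank 132 among the candidates. Measured from ID2, ID1 was nearer, at rank 25, and ID3 was at rank 140. Measured from ID3, ID1 was rank 114 and ID2 rank 179. The means of APOE, for example, were 65.1 ± 2.96 with the extract and 120 ± 4.72 in controls.

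As a check of the label, HBZ, an embryonic globin gene that K562 cells are known to express, was high in every library, between 4952 and 5306 with the extract and between 2834 and 2920 in controls. It was the 1 listed gene of 15 K562 and erythroid markers. Of 15 megakaryocyte and platelet markers ITGA2B, GP1BB and THBS1 were listed, and their summed values were 46.7 to 60.4 with the extract and 56.3 to 120 in controls. These markers did not move one way. GP1BB, a platelet glycoprotein gene that made up most of the sum, averaged 49.8 ± 5.63 with the extract and 81.2 ± 27.2 in controls, with overlapping groups. ITGA2B, an integrin gene, averaged 2.02 ± 0.438 with the extract and 3.48 ± 0.718 in controls (SD, n = 4 each), and THBS1, given above, had the higher mean with the extract, with overlapping groups. Of 18 lymphoid, monocyte and fibroblast markers considered here CD3D, CD68 and COL1A1 were listed, with sums of 32.8 to 37.2 with the extract and 62.3 to 67.7 in controls. None of the listed markers was at 0 in every library, and the part of these differences in the values of ID1, ID2 and ID3 was not tested. In bulk RNA, fewer cells of a type and less RNA per cell cannot be told apart. Pearson correlations of log2 values over the tested genes were 0.938 to 0.962 within groups and 0.819 to 0.875 across groups, and no libraries were identical (0 pairs). Sums of the listed values lay between 13114 and 14134 per library, and as the list is partial they do not measure depth.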

How the data were processed

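Reads were processed with HISAT2 and StringTie on GRCh38, per the submitters' processing notes, which give no version or role. The deposited table holds 1 expression value per gene and library (a score whose unit the authors did not name, with 2 decimals) and the authors' mean per group. It also holds the authors' fold change as a ratio, its log2 value, p-values and adjusted p-values, deposited with no tool named in the sources used here. The values are not counts and the depth is unknown, so no counting interval is given. 0 columns of other samples were present.

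Values were taken as log2(value + 1), and the 750 of 1950 genes that reached 1 in 4 or more of the 8 libraries were fitted with limma 3.58.1 in R 4.3.3, trended and robust. Adjusted p is Benjamini-Hochberg over the 750, called at 0.05. This fit was tested on simulated data first. The members, the gene lists, the motifs and the naming rule were chosen with earlier results of these data known. The rule named the 3 members, list genes with a row in the table, and the 3 genes most like each member. Multiplying each deposited p-value by a family of 60664 and dividing by its adjusted p-value gave whole ranks (within 0.02) for 100% of 1243 genes. This family was used as an alternative. Other alternatives were pseudocounts of 0.1 and 0.5, no filter, 2 scalings, other moderation, leaving out each library, and a replicate block. Some list genes are not reported here and were left out of the lists. Gene positions are those of GENCODE 29.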

Additional observations from a re-analysis of the deposited data

Results flagged for a closer look

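Among 36 groups of 4 libraries (the 3 ID genes, the tested list genes and the genes most like the members, extract and control), 3 held a library far from the others, where chance flags about 1 in 20, or 1.8 of 36. ID1 was low in control 5, at 49.46, with the other controls between 64.2 and 66.0. ATF3 was low in the same library, at 7.73, with the others between 8.29 and 8.34. BBC3 was high in control 3, at 15.5, with the others between 12.3 and 12.4.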

How the results depend on the processing

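ID1, ID2 and ID3 were lower with the extract under each of 15 other settings that refit them. Their log2 changes moved by more than the spread between libraries with median centring (−0.56, −0.79 and −0.41) and quantile normalization (−0.20, −0.83 and −0.32), and that of ID2 also with a pseudocount of 0.1 (−1.28). Leaving out each library in turn gave −0.92 to −0.78 for ID1, −1.11 to −0.94 for ID2 and −0.77 to −0.62 for ID3. Median centring shifts every gene by the same amount, so the members stayed 0.33, 0.56 and 0.18 below the median of tested genes. For ID2 the log2 ratio of the mean values, with no pseudocount, was −1.29. The cause of the moves with quantile normalization was not tested. Of 621 limma calls, 201 higher and 420 lower, 167 were left over the family of 60664 genes, 45 higher and 122 lower. Without a filter all 1950 genes were fitted, and 881 were called, 314 higher and 567 lower. With median centring 241 and with quantile normalization 251 were called lower. Of the list genes 5 were called, against 3 over the family of 60664. Without a filter 9 of the 19 listed were called, beside 881 of all 1950 genes. The 9 include RGMA, HES7, HEYL and BHLHA15, which were not called with the filter. The numbers 2 to 4 occur in both groups, and the labels do not say that they pair libraries. The deviations of same-numbered libraries had correlations of 0.0754, 0.0754 and 0.149, and no threshold for pairing was set. Control 3 and control 4 correlated best with the extract library of their own number, while control 2 correlated best with extract 1 (0.136). Pairing by number was thus not settled. With the replicate block over these 6 libraries the log2 changes were −0.96, −1.08 and −0.61, and 515 genes were called, against 527 in the same libraries without it, a fit added after seeing the data. The depth is unknown, so what counting error limits could not be given.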
